A study of Mus musculus with 8 samples.

Results

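Densely clustered m6A sites are adenosines with an m6A call that have at least 4 other called sites within 100 nt on the same strand. They were chosen in control mouse TBLC, from sites called in both siNC libraries, with a gene name and a mean siNC level of at least 0.3 and under 0.9. The rule gave 1219 sites in 565 genes, which is 4.59% of the 26570 sites with a gene name in that level range and part of the 49554 sites called in both siNC libraries. The other 25351 sites of the same range, which had 0 to 3 other sites within 100 nt, served as the comparison. The siNC lists and levels chose the sites, so siNC values are a description here, and the siVirma values are the measurement.

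The libraries were TBLC cultured in MYCP medium, the abbreviations being the labels' own (TBLC commonly stands for totipotent blastomere-like cells). In 2 libraries Virma was knocked down with siRNA (siVirma) and 2 libraries received the control siRNA (siNC). The series also has EPSC carrying a dCas13b-FTO demethylase system with either a Gata6 guide (sgGata6) or a control guide (sgCtrl), given as 1 pooled column for each guide. Whether replicates are separate cultures is not stated in the labels, so p-values rest on a spread between libraries that may be technical. In GLORI, chemical deamination makes adenosines without the mark appear as G in the reads, and m6A still appears as A. The level of a site is its A reads divided by its A and G reads, a fraction.

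m6A is laid down on nascent mRNA by a complex in which Mettl3 and Mettl14 form the catalytic core. Wtap, Zc3h13, Cbll1, Rbm15 and Virma belong to the associated part, and Virma is its large scaffold subunit. Most m6A lies in the DRACH motif, where the methylated A is followed by C. Many mRNAs carry their sites in groups, often in long internal exons and near the stop codon. YTH proteins bind the mark and are best known for speeding the decay of the mRNA. Positions are given in mm39. Sequence, exons and UTRs of that build were not read here.

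The knockdown was seen at Virma itself: the deposited gene coverage of Virma was 24.1 and 22.8 in siVirma libraries and 40.3 and 38.2 in siNC libraries. The lists held 41082 and 34739 called sites with 3423268 and 2655963 A and G reads in siVirma libraries, and 66350 and 61957 sites with 4764955 and 4367999 reads in siNC libraries. Of 8 pluripotency markers, 7 had a listed site in every library. Their summed gene coverage was 1610 and 1290 in siVirma libraries and 1430 and 1380 in siNC libraries. Of 10 markers of the 2-cell or totipotent state, 5 were listed in all 4 libraries. Gene coverage summed over the 13 of 20 fibroblast markers listed in all 4 libraries was 895 and 739 in siVirma libraries and 630 and 590 in siNC libraries. The fibroblast marker Dcn had no listed site in any library. Fn1 and Postn, also fibroblast markers, were listed in both siNC libraries and in neither siVirma library, so that sum leaves them out. The highest coverage of a fibroblast marker was 156 and 129 in siVirma libraries and 298 and 178 in siNC libraries. The part of fibroblasts in the results below was not tested. In bulk RNA, fewer cells of a type and less RNA per cell cannot be told apart.

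Most dense sites sat at the lower edge of the rule. There were 907 with 4 other sites, 240 with 5, 56 with 6 and 16 with 7. The 907 sites just inside the rule had a median siNC level of 0.542 and 55 reads, and the 2388 sites just outside it, with 3 others, had 0.552 and 49.5 reads. At the lower level limit, 73 dense sites lay from 0.3 to under 0.32 and 76 equally crowded sites from 0.28 to under 0.3. At the upper limit, 35 lay from 0.88 to under 0.9 and 38 from 0.9 to under 0.92. Without the level range and the gene name there were 2243 crowded sites, of which 844 lay under 0.3, 158 lay at 0.9 or higher and 22 had no gene name.

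The dense sites were read more deeply than the rest and had much the same level. The median siNC level was 0.538 (quartiles 0.395 and 0.720) at dense sites and 0.537 (quartiles 0.400 and 0.713) at the rest. The median mean siNC depth was 59 A and G reads (quartiles 37.5 and 96.5) at dense sites, 36 (quartiles 24 and 62.5) at the rest and 29.5 at the 9272 sites with no other site within 100 nt. The gene coverage of the dense sites' genes also lay above that of the rest, with medians of 55.5 and 52.2 against 38.6 and 37.4 in siNC libraries. No list has a site below 15 reads, 5 A reads or a level of 0.1, so a call depends on depth. The main comparisons below were therefore made with the rest weighted to the dense sites' siNC level and depth.

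The genes were almost wholly mRNA genes. Of the 560 of 565 gene names found in RefSeq tables, 543 (97.0%) were protein coding, 11 were pseudogenes, 5 were long noncoding RNAs and 1 was a transcribed pseudogene. Of the 7038 matched genes holding the rest, 92.6% were protein coding. Chromosome 11 held the most dense sites, 116 of its 2328 sites in range (4.98%). As a share of sites in range, chromosome 14 was highest with 82 of 972 (8.44%) and chromosome 15 lowest with 18 of 1012 (1.78%). The plus strand held 54.9% of dense sites and 54.5% of the rest.

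The nearest called site lay a median of 18 nt away from a dense site and 62 nt away from one of the rest. That closeness follows in part from the rule. Within the window the spacing was not even. Only 1 dense site had a neighbour at 3 nt, and none had one at 1 or 2 nt. At 4 nt there were 47 dense sites (3.86%). The commonest distance was 9 nt, with 74 dense sites (6.07%) and 1.56% of the rest. A neighbour within 20 nt was found for 57.3% of dense sites and 19.9% of the rest. Sites this close lie on the same reads, so they are not independent measurements.

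**Figure D1:**
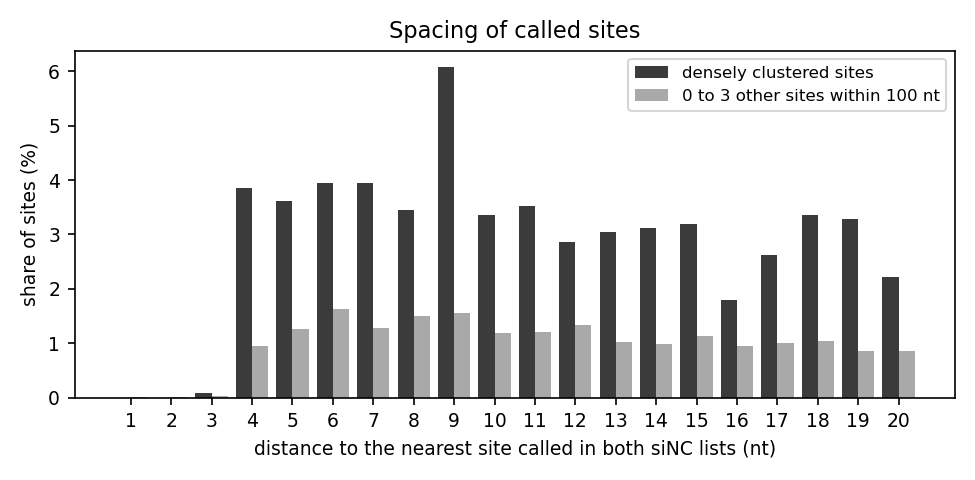
Share of sites (y, %) by the distance in nt to the nearest site called in both siNC lists (x, 1 to 20 nt), for densely clustered sites (dark bars) and sites with 0 to 3 others within 100 nt (light bars). Almost no site has a neighbour closer than 4 nt, and the tallest dark bar is at 9 nt.

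Called sites around the dense sites lay under, in and above the level range. Within 100 nt of a dense site lay 2367 called sites that were not members: 1194 of them had a siNC level under 0.3, 283 had 0.9 or more, 888 were in range with fewer than 4 others, and the remainder had no gene name. Since the dense sites themselves were left out, these numbers follow in part from the level range; of all crowded sites with a gene name 38.0% lay under 0.3, against 34.3% of other sites with a gene name. Chaining dense sites at most 100 nt apart gave 636 clusters, of which 305 held 1 dense site, 169 held 2 and 162 held 3 or more. Clusters of 2 or more spanned a median of 72 nt. The longest spanned 307 nt. Chaining all called sites in the same way gave runs, and 617 runs contained a dense site, with a median of 6 called sites over 189 nt and at most 19 sites.

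Clusters in Plk2, Tns3, Atmin and Med25 show what a dense stretch looked like with and without the knockdown. They are 4 of the 5 clusters with the most dense sites, 6 each, and kept 5 or 6 of these. The fifth, in Pigm at chr1:172205200-172205506, kept only 2 of its 6 dense sites in both siVirma lists; it was left out of the site values by its longer span. In Plk2, a polo-like kinase, the run at chr13:110536668-110537193 on the plus strand held 15 called sites, 7 of them dense and 6 of these in 1 cluster. Reads summed over its sites measured with at least 20 reads in every library, 1974 to 2475 in a library, gave a level of 0.231 and 0.229 in siVirma libraries and 0.533 and 0.543 in siNC libraries. The log2 odds of A to G reads fell by 1.96 (SE 0.07, edgeR adjusted p = 9.59e-25, limma adjusted p = 0.00127). Levels of the runs below were summed over measured sites in the same way, with a read covering several sites counted at each. Such repeated counts can make the SE and the edgeR p-value of a run too small. In the Plk2 run the libraries nearly coincided within each group, and the groups did not overlap.

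The closest pair of dense sites in Plk2 kept its order. The dense site at position 110536959 had levels of 0.329 and 0.324 in siVirma libraries, against 0.770 and 0.816 in siNC libraries. The dense site 7 nt upstream, at 110536952, had 0.134 and 0.129 in siVirma libraries and 0.306 and 0.398 in siNC libraries. The stronger of these neighbours thus stayed the stronger in all 4 libraries. The most methylated site of the run, at 110536808, was above the level range of the rule in siNC libraries, with 0.504 and 0.485 in siVirma libraries and 0.906 and 0.922 in siNC libraries. The 3 weakest sites of the run, with 0.109 to 0.161 in siNC libraries, were in neither siVirma list.

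In Tns3, which encodes the focal adhesion protein tensin 3, the run at chr11:8442809-8443158 on the minus strand held 12 sites, 6 of them dense. Its level was 0.298 and 0.279 in siVirma libraries and 0.502 and 0.548 in siNC libraries. The log2 odds fell by 1.43 (SE 0.12, edgeR adjusted p = 2.18e-13). All 6 dense sites were still called in both siVirma libraries. The strongest of these in siNC libraries, at 8443029, had 0.404 and 0.277 in siVirma libraries and 0.494 and 0.667 in siNC libraries. The site 5 nt from it, at 8443034, had 0.160 and 0.222 in siVirma libraries and 0.318 and 0.412 in siNC libraries.

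In Atmin, a zinc finger transcription factor that interacts with the kinase ATM, the run at chr8:117684436-117684863 on the plus strand held 15 sites, 6 of them dense. Its level was 0.287 and 0.292 in siVirma libraries and 0.551 and 0.535 in siNC libraries. The log2 odds fell by 1.55 (SE 0.13, edgeR adjusted p = 5.33e-14). The dense site with the largest change in this run lay at 117684544, where the level was 0.191 and 0.276 in siVirma libraries and 0.750 and 0.913 in siNC libraries. Its neighbour at 117684550 was listed at 0.118 in siVirma replicate 1 only, with 0.391 and 0.308 in siNC libraries.

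In Med25, a Mediator subunit, the run at chr7:44526808-44526999 on the minus strand held 7 sites, 6 of them dense, and kept the largest share of its level among these clusters. The level over its 4 sites with at least 20 reads in every library was 0.449 and 0.339 in siVirma libraries and 0.607 and 0.615 in siNC libraries. The log2 odds fell by 1.25 (SE 0.23, edgeR adjusted p = 5.48e-06). The siVirma replicates differed most here. The dense site at 44526808 had 0.413 and 0.143 in siVirma libraries, from 46 and 42 reads, and 0.667 and 0.676 in siNC libraries. The dense site at 44526957 had 0.676 and 0.769 in siVirma libraries, against 0.914 and 0.862 in siNC libraries.

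**Figure D2:**
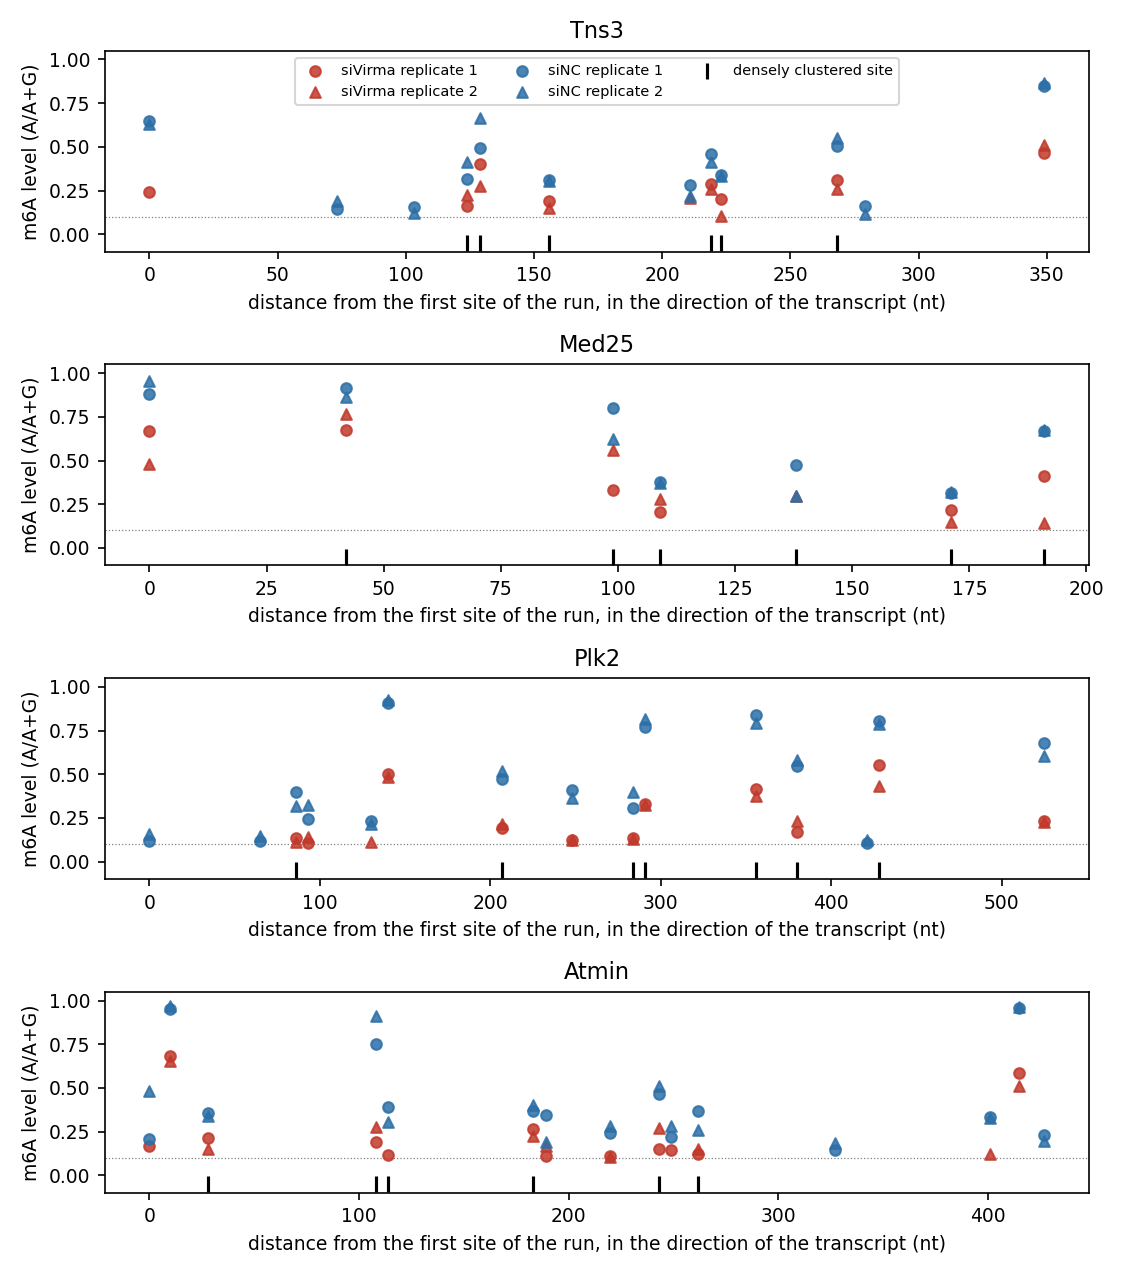
m6A level (y, A/A+G) of every called site by distance in nt from the first site of the run in transcript direction (x) in Tns3, Med25, Plk2 and Atmin; red marks are siVirma libraries, blue marks siNC libraries, circles replicate 1, triangles replicate 2, and black ticks densely clustered sites. The dotted line is a level of 0.1, the lowest the lists hold; a site missing from a list has no mark, and the weakest blue sites have no red mark.

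The first question was how many dense sites remained called after Virma knockdown. Of the 1219 dense sites, 965 (79.2%) were in both siVirma lists, 180 (14.8%) in 1 of them and 74 (6.07%) in neither. Among the rest, 16305 sites (64.3%) were in both siVirma lists and 14.7% in neither. By library, 87.0% of dense sites were listed in siVirma replicate 1 and 86.1% in siVirma replicate 2, against 78.2% and 71.5% of the rest. Dense sites were thus kept more often in both libraries.

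The gap was smaller after matching. After weighting to the dense sites' level and depth, 75.1% of the rest were in both siVirma lists, which leaves a difference of 4.09 percentage points in place of the 14.8 counted directly. In siVirma replicate 1 the shares were 87.0% of dense sites and 84.8% of the weighted rest, and in siVirma replicate 2 they were 86.1% and 81.3%. Narrower matching bins gave 3.53 and 3.43 points, and a smooth model of level and depth gave 3.34 points. The difference had the same sign in both libraries, but an exact sign-flip test over 2 libraries gave p = 0.5, the smallest it can give. Against sites with no other site within 100 nt, weighted the same way, the difference was 5.85 points.

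Retention followed the siNC level closely. Of 315 dense sites with a siNC level of 0.3 to 0.4, 49.8% were in both siVirma lists, against 32.5% of the rest. Of 183 dense sites at 0.5 to 0.6 it was 86.3%, against 70.3% of the rest. Of 168 dense sites at 0.8 to 0.9 it was 98.8%, against 91.8% of the rest. The dense sites lay above the rest in each of the 6 level bins before depth was matched. Within bins of depth, with the rest weighted by level, the shares at dense sites and the rest were 48.8% against 40.4% under 30 reads, 75.8% against 71.1% at 30 to 50 reads, 84.9% against 82.5% at 50 to 100 reads 90.2% against 88.6% at 100 to 200 reads and, for 74 dense sites, 98.6% against 91.0% at 200 reads or more. The 254 dense sites that were not kept had a median siNC level of 0.361 and 37.5 reads, and the 965 kept had 0.60 and 64.5 reads.

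**Figure D3:**
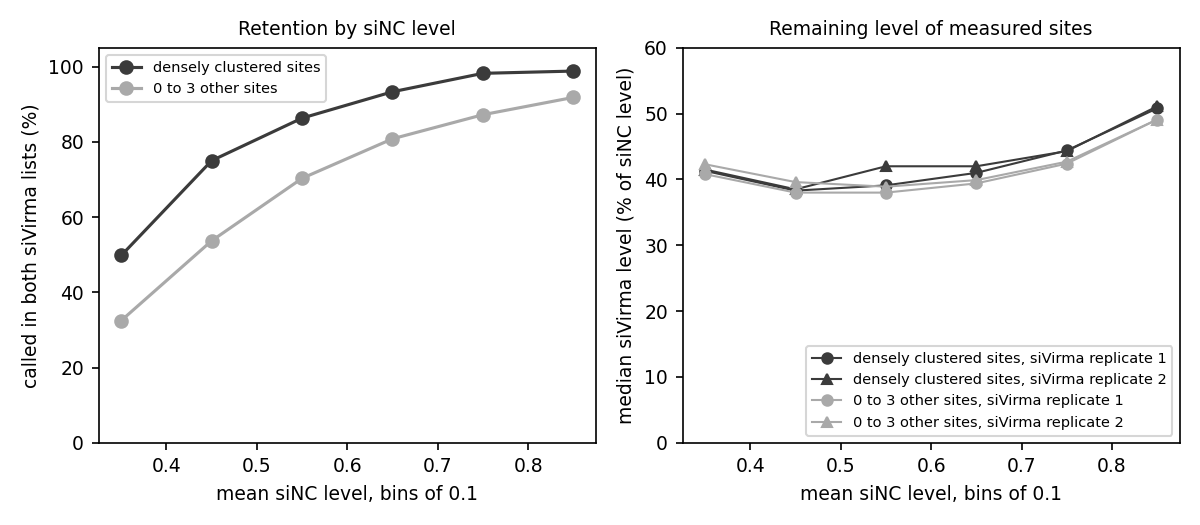
Left, share of sites called in both siVirma lists (y, %) by mean siNC level in bins of 0.1 (x), for densely clustered sites (dark) and sites with 0 to 3 others (light), not weighted by depth. Right, median siVirma level as % of the siNC level (y) of measured sites in the same bins, for siVirma replicate 1 (circles) and replicate 2 (triangles); retention runs between 49.8% and 98.8% at dense sites, and the remaining level shows no such gap between the kinds of site.

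Retention also went up with the number of other sites, and less so once matched. As counted, it was 54.5%, 66.6%, 72.6% and 76.6% for sites with 0, 1, 2 and 3 others, and 78.4%, 78.3% and 91.7% for 4, 5 and 6 or more. Median depth ran in the same order, with 29.5, 36.5, 43.5 and 49.5 reads for 0 to 3 others and 55, 65.8 and 86.3 reads for 4, 5 and 6 or more. Weighted to the dense sites' level and depth, retention was 73.3%, 75.4%, 76.7% and 78.2% for 0 to 3 others and 79.0%, 77.5% and 83.3% for 4, 5 and 6 or more. The last value covers 72 sites, and 82.5% of the dense sites' weight had a match there.

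**Figure D4:**
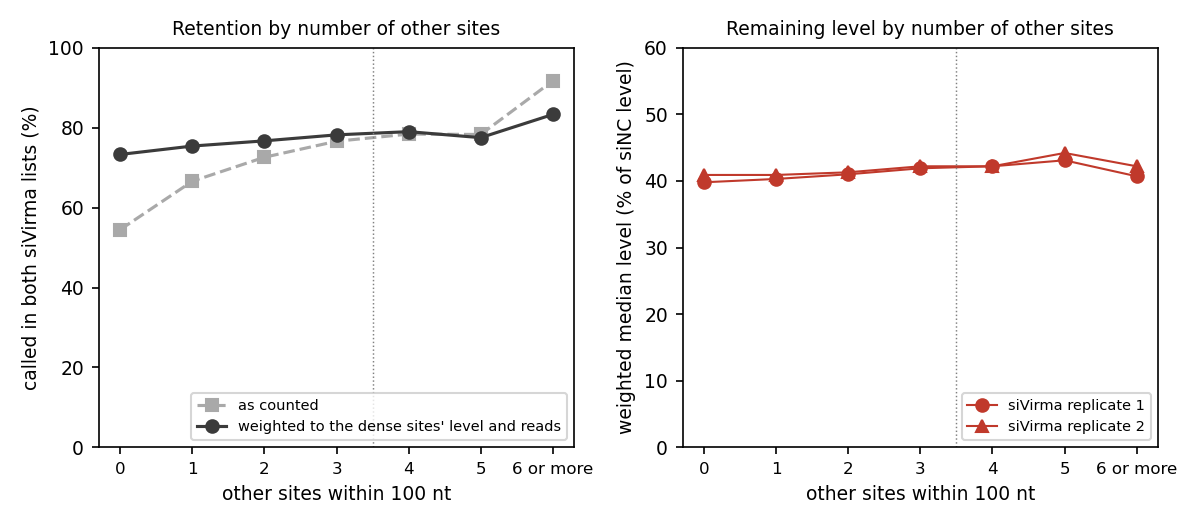
Left, share of sites called in both siVirma lists (y, %) by the number of other sites within 100 nt (x), as counted (squares, dashed) and weighted to the dense sites' siNC level and depth (circles); the dotted line is the limit of the rule. Right, weighted median siVirma level as % of the siNC level (y) by the same count, for both siVirma libraries; weighted retention lies between 73.3% and 83.3%, a narrower range than the 54.5% to 91.7% as counted.

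The positions had fewer called neighbours in the siVirma lists. The median number of other sites within 100 nt was 2 in the siVirma lists and 4 in the siNC lists, counting only sites called in both libraries of a group. In the siVirma lists, 186 of the dense positions still had 4 or more other sites, 777 had 2 or 3, 211 had 1 and 45 had none. Both called and crowded after knockdown were 152 of the 1219 (12.5%). Over all called sites, 563 of 28098 (2.00%) had 4 or more others in siVirma libraries and 2243 of 49554 (4.53%) in siNC libraries. The dense sites were chosen for their number of neighbours in the siNC lists, and the siVirma lists were shorter, so the siNC counts are a description and the parts of this choice and of list length were not tested.

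The second question was how far the level fell at sites that could be measured. A site was measured if it was listed in all 4 libraries with at least 20 reads in each. That held for 932 dense sites (76.5%) and 14318 of the rest (56.5%), so the values below leave out the sites that dropped off a siVirma list. The median level of the measured dense sites was 0.241 and 0.244 in siVirma libraries and 0.596 and 0.587 in siNC libraries. The medians averaged 0.243 ± 0.00178 in siVirma libraries and 0.591 ± 0.00602 in siNC libraries (SD, n = 2 each). The difference was -0.349, many times the spread between libraries. The exact two-sided permutation p was 0.33, and a design of 2 against 2 allows no smaller value. How much of it comes from choosing sites by their siNC calls was not tested.

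Site by site, 921 of the 932 measured dense sites fell in edgeR's quasi-likelihood test, adjusted by Benjamini-Hochberg over all 20414 measured sites. Across all sites tested 91.6 percent fell, and among the measured rest 96.3%. No measured dense site rose (background 0.147 percent), and of the measured rest 0.0489% did. By edgeR, limma and DESeq2 alike no measured dense site was higher even at an unadjusted p of 0.05. Falls numbered 912 by limma and 862 by DESeq2. In 928 of the 932, the higher siVirma value was below the lower siNC value. That held for 98.1% of the measured rest and a background of 94.8 percent over all sites tested. These shares were not matched on depth or siNC level. The median log2 change in odds was -2.17 at dense sites, -2.26 at the rest and -2.28 over all sites tested.

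**Figure D5:**
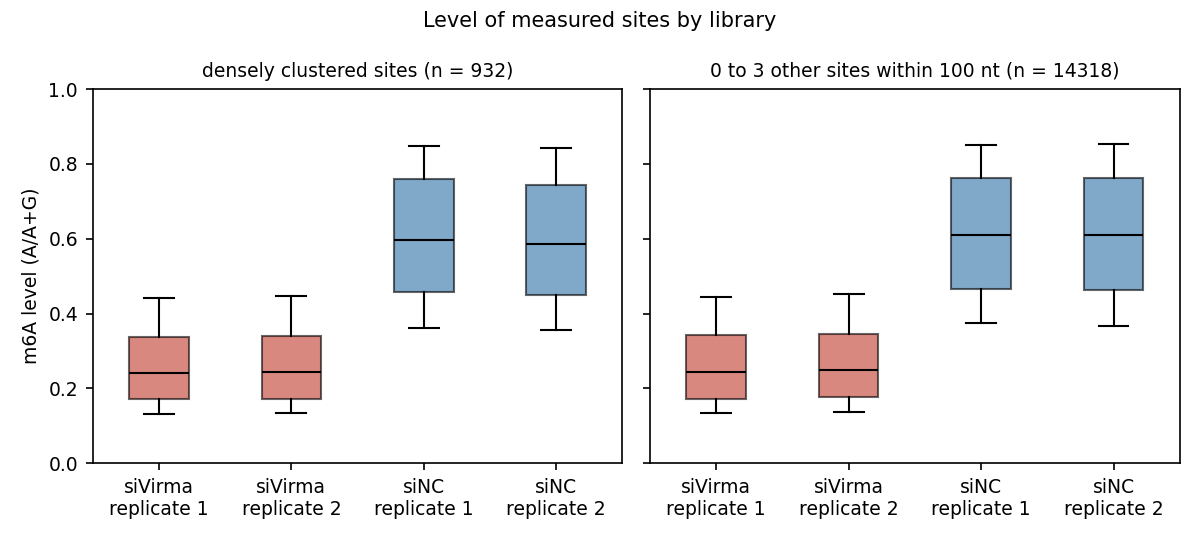
m6A level (y, A/A+G) of measured sites in each of the 4 TBLC libraries (x), for 932 densely clustered sites (left) and 14318 sites with 0 to 3 others (right); boxes span the quartiles with the median line, and whiskers reach the 10th and 90th percentiles. In both panels the siVirma medians lie near 0.24 and the siNC medians near 0.6.

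The remaining share, the siVirma level as a percentage of the mean siNC level, was close to that of the rest. Its median over dense sites was 42.4% in both siVirma libraries, against 40.6% and 41.3% for the weighted rest. The dense sites were higher by 1.75 and 1.17 points in siVirma libraries. The same quantity was 0.192 and -0.192 in siNC libraries. Each level was divided by the mean of both siNC libraries, so the siNC values mirror each other by construction. They do not measure an independent spread between libraries, and the permutation test below uses them. The mean difference was 1.46 points, with an exact two-sided permutation p of 0.33, the smallest possible. Without weighting it was 0.699 points. With sites missing from a siVirma list kept at a level of 0, it was 2.28 points.

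Within the same transcript the difference had opposite signs in the siVirma libraries. In 469 genes with measured sites of both kinds, the median over genes of the difference in remaining share was -0.119 and 0.440 points in siVirma libraries and 0.254 and -0.254 points in siNC libraries. The mean difference was 0.161 points (exact two-sided permutation p = 0.667). Here too the siNC values mirror each other through division by their own mean, so this p-value rests in part on that division. In the 555 genes with both kinds of site in range, retention was 79.4% at dense sites and 75.5% at other sites, and 79.0% at other sites once weighted to the dense sites' level and depth.

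The remaining share varied more over siNC level than over the number of other sites. Among measured dense sites, its median in siVirma replicates 1 and 2 was 41.3% and 41.5% at siNC levels of 0.3 to 0.4, 38.3% and 38.5% at 0.4 to 0.5, and 50.8% and 51.1% at 0.8 to 0.9. A site of a low bin is measured only if its siVirma level is still at the lists' minimum of 0.1 or above. By number of other sites, the weighted median was 39.8% and 40.9% for isolated sites, and 42.2% in both libraries for sites with 4 others. It was 43.1% and 44.2% with 5 others and 40.7% and 42.2% with 6 or more. Over dense sites the middle of the range was 36.7% to 50.1%, with 14 sites (1.5%) keeping over 75% and 12 (1.29%) keeping under 25%. In the rest, 2.70% kept over 75% and 1.33% under 25%.

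Neighbouring dense sites mostly kept their rank. Of 513 pairs of measured dense sites within 100 nt of each other, 273 were apart by at least 0.1 in both siNC libraries, in the same direction. The same site was the higher one in 256 of these pairs (93.8%) in siVirma replicate 1 and in 254 (93.0%) in siVirma replicate 2. Among 1814 such pairs of other sites it was 93.9% and 93.6%. The median gap within the pairs of dense sites was 0.140 in siVirma libraries and 0.283 in siNC libraries. The pairs were chosen by their siNC gap, and the part of that choice in the smaller siVirma gap was not tested.

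The remaining share differed within runs and between them. In 251 runs with 2 or more measured dense sites, 649 sites in all, the pooled SD within runs was 9.28 points and the SD of the run means was 8.27 points, or 5.67 points with the within-run part of that spread taken out. The median range inside a run was 10.5 points. Counting error is part of the within-run spread.

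Sites were also counted by run, so that neighbouring sites entered together. By edgeR's quasi-likelihood test, 600 of the 601 tested runs with a dense site fell, against 90.9 percent of all 13664 runs tested. These shares were not matched on reads, level or number of sites, and runs with a dense site held a median of 6 called sites. A read covering several sites of a run was counted at each of them, so summing did not remove shared reads. In 67 of the 601 the tested reads came only from sites that were not dense (66 fell), and the 534 with a measured dense site all fell. None rose (background 0.212 percent), also not at an unadjusted p of 0.05. The exception was a run in Anapc1, a subunit of the anaphase-promoting complex, at chr2:128453138-128453257 on the minus strand, where the dense site was not measured and the 1 tested site was a neighbour. It had 0.550 and 0.625 in siVirma libraries, from 20 and 24 reads, against 0.754 and 0.741 in siNC libraries (adjusted p = 0.0618). Over their measured sites, runs with a dense site kept a median of 47.4% of their level, and other runs 45.5%. Sites that dropped off a siVirma list are not in these values, and 57.5% of called sites in runs with a dense site were in both siVirma lists. Of the 617 runs, 20 kept every called site, 589 kept part of them and 8 kept none.

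The genes with the most clusters had varied functions. Clusters numbered 1 in 501 genes, 2 in 58, 3 in 5 and 4 in 1, and 35 genes held 5 or more dense sites. In each gene below, values are means over its measured dense sites. Every measured dense site of these genes fell in edgeR's test, except 1 in Rev1.

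Nsd1, a histone lysine methyltransferase, was the gene with 4 clusters, lying between chr13:55393833 and 55460796. It had 54 called sites, of which 5 were dense, and all 5 were kept. Their level was 0.271 and 0.268 in siVirma libraries and 0.523 and 0.496 in siNC libraries, or 52.9% remaining. The strongest, at 55393833, had 0.509 and 0.491 in siVirma libraries and 0.813 and 0.745 in siNC libraries.

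Grwd1, a WD-repeat protein of ribosome biogenesis, had 3 clusters with 8 dense sites between chr7:45474999 and 45475447, 7 of them kept. The level was 0.293 and 0.257 in siVirma libraries and 0.664 and 0.624 in siNC libraries, or 42.7% remaining. Its 2 runs had log2 odds changes of -2.34 (SE 0.11, edgeR adjusted p = 1.03e-20) and -2.37 (SE 0.23, edgeR adjusted p = 6.75e-12). In the run at the lower coordinates, the dense site at 45475158 had 0.368 and 0.356 in siVirma libraries and 0.875 and 0.744 in siNC libraries.

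Usp34, a deubiquitinase, had 3 clusters with 7 dense sites, of which 4 were kept. The 4 measured sites had 0.266 and 0.251 in siVirma libraries and 0.595 and 0.542 in siNC libraries. The run at chr11:23314117-23314391 had 1 tested site, which was not its dense one, with 0.526 and 0.632 in siVirma libraries and 0.730 and 0.811 in siNC libraries. Its adjusted p was 0.0136, and it was 0.126 without siNC replicate 2 and 0.112 by DESeq2.

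Epha4, an ephrin receptor tyrosine kinase, kept the most of its level among the 10 genes with the most clusters. Its 5 dense sites in 3 clusters, between chr1:77345941 and 77350126, were all kept and had 0.412 and 0.461 in siVirma libraries, against 0.673 and 0.669 in siNC libraries, or 65.0% remaining. The run at chr1:77349717-77349909 fell by 1.03 in log2 odds (SE 0.16, edgeR adjusted p = 3.24e-07). Here the level was 0.466 and 0.511 in siVirma libraries and 0.667 and 0.651 in siNC libraries, with no overlap.

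Nup62, a nucleoporin of the central channel of the nuclear pore, had 5 dense sites in 3 clusters, all kept, with 0.257 and 0.316 in siVirma libraries and 0.609 and 0.619 in siNC libraries. Mesd, a chaperone of the Wnt coreceptors Lrp5 and Lrp6, had 3 dense sites in 3 clusters, with 0.330 and 0.332 in siVirma libraries and 0.631 and 0.658 in siNC libraries. Mesd was the most deeply read of the genes with 3 clusters. Its run at chr7:83547603-83547858, from 1123 to 1350 reads in a library, had 0.210 and 0.190 in siVirma libraries and 0.397 and 0.413 in siNC libraries. The run at chr7:83548007-83548195 was higher in every library, with 0.407 and 0.433 in siVirma libraries and 0.739 and 0.768 in siNC libraries.

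Tns3 had the most dense sites of any gene, 10 in 2 clusters, 9 of them kept. Its other run, at chr11:8383579-8383672, fell by 2.23 in log2 odds (SE 0.18, edgeR adjusted p = 3.56e-14), more than the run described above. In that run the level was 0.169 and 0.167 in siVirma libraries and 0.483 and 0.493 in siNC libraries. The difference between these runs was not tested. The dense site at 8383591 was the one lost: it had 0.443 and 0.366 in siNC libraries, from 131 and 134 reads, and was in neither siVirma list.

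Tasor, a component of the HUSH silencing complex, had 9 dense sites in 2 clusters, 8 of them kept, with 0.281 and 0.278 in siVirma libraries and 0.568 and 0.561 in siNC libraries. Among them, the site at chr14:27202771 had 0.578 and 0.611 in siVirma libraries and 0.927 and 0.854 in siNC libraries. The site 7 nt upstream, at 27202764, had 0.196 and 0.125 in siVirma libraries and 0.432 and 0.296 in siNC libraries. Plk2 had 7 dense sites, all kept, with 44.9% remaining. Rev1, a translesion DNA polymerase, had 7 dense sites, of which 6 were kept, with 0.303 and 0.332 in siVirma libraries and 0.573 and 0.549 in siNC libraries.

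Rev1 also held the dense site with the weakest evidence of change, at chr1:38127450. It had 0.400 and 0.364 in siVirma libraries, from 30 and 22 reads, and 0.533 and 0.400 in siNC libraries, from 30 and 20 reads (edgeR adjusted p = 0.344). It was 1 of 11 measured dense sites that did not pass, each in a different gene. Those 11 had a median siNC level of 0.380 and a median of 28 reads, against 0.595 and 67 reads for the 921 that fell. All 11 had a lower mean in siVirma libraries. The others included sites in Abhd13, Ccdc85c, Cog3, Kdsr, Pcdhgc3, Polk, Rad51ap1, Xntrpc and Zfp266, and these were named after their values were seen.

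Dense sites read at least 50 times in each library fell furthest in Sall4, Naa40, Prpf4 and Rbpj. Sall4, a zinc finger transcription factor of pluripotent cells and early embryos, had a site at chr2:168591525. Its level was 0.309 and 0.274 in siVirma libraries and 0.876 and 0.872 in siNC libraries (edgeR adjusted p = 1.10e-18, limma adjusted p = 0.000753). Naa40, an N-terminal acetyltransferase of histones, had one at chr19:7204849 with 0.248 and 0.249 in siVirma libraries and 0.825 and 0.815 in siNC libraries. The replicates of both sites were far closer to each other than the groups were. Prpf4, a spliceosomal snRNP protein, had one at chr4:62342417 with 0.366 and 0.329 in siVirma libraries and 0.88 and 0.913 in siNC libraries. Rbpj, the DNA-binding factor of Notch signalling, had one at chr5:53811039 with 0.373 and 0.308 in siVirma libraries and 0.922 and 0.846 in siNC libraries.

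The same Rbpj run also held one of the dense sites that kept most. At chr5:53810982 the level was 0.691 and 0.738 in siVirma libraries and 0.875 and 0.842 in siNC libraries, or 83.2% remaining (edgeR adjusted p = 0.00165, and 0.0629 without siVirma replicate 1). These Rbpj sites had similar siNC levels. They were picked for opposite outcomes after knockdown, and the difference between them was not tested. Cemip2, a cell-surface hyaluronidase, kept the largest share at chr19:21775543, with 0.714 and 0.750 in siVirma libraries and 0.862 and 0.882 in siNC libraries, or 83.9% (edgeR adjusted p = 0.000803). Tbc1d24, a protein of vesicle traffic, kept 80.6% at chr17:24404555, with 0.750 and 0.676 in siVirma libraries and 0.926 and 0.841 in siNC libraries (edgeR adjusted p = 0.000812, and 0.0522 without siNC replicate 1).

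The fourth of these was in Ppp1r15b, a regulatory subunit of the phosphatase that acts on the initiation factor eIF2. Its site at chr1:133060797 had 0.574 and 0.60 in siVirma libraries and 0.745 in both siNC libraries, or 78.8% remaining (edgeR adjusted p = 0.0154). That call was lost without siVirma replicate 1 (0.0746), without siNC replicate 1 (0.0564) and by DESeq2 (0.117). The groups did not overlap at any of these 8 sites, as at 94.8 percent of all sites tested.

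In 65 of the 565 genes no dense site was in both siVirma lists, although it could still be in 1 of them; 60 of these genes had 1 or 2 dense sites. Of 181 genes with 3 or more dense sites, 80 kept every one in both siVirma lists and 5 kept none. The 5 were Gli2, a transcription factor of Hedgehog signalling, with 4 dense sites, and Edem3, Fbxo8, Klhl8 and Kpna1 with 3 each. Their mean siNC depth was low, at 21.8, 24, 31 and 25.5 reads for Gli2, Edem3, Fbxo8 and Klhl8, against a median of 59 over dense sites. Kpna1, which encodes an importin alpha, was the exception with 63.5 reads. These 5 were named after their values were seen.

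Gene groups related to the study's subject each held some dense sites. Every measured one fell, which is near the 98.8% of all measured dense sites and 91.6% of all sites tested that did, so the counts show nothing particular to a group. Of all genes with a site in range, 7.91% held a dense site. Genes were not matched on depth or number of called sites, so this share and those of the groups below are counts only. Among FGF-ERK signalling genes 6 of 23 did, with 11 measured sites that all fell and a median of 42.3% remaining. They included Fgf4, Fos, Dusp6, Spred2 and Spry1. Fgf4, the ligand that epiblast cells supply to primitive endoderm, had 6 dense sites in 2 clusters between chr7:144417029 and 144417311, all kept. Their level was 0.290 and 0.276 in siVirma libraries and 0.701 and 0.703 in siNC libraries. Fos, a subunit of AP-1, had 2 dense sites with 0.269 and 0.287 in siVirma libraries and 0.528 and 0.491 in siNC libraries.

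Fgf4 shows the spread inside a short stretch. The site at 144417190 had 0.356 and 0.398 in siVirma libraries and 0.876 and 0.902 in siNC libraries. The site 12 nt upstream, at 144417178, had 0.172 and 0.179 in siVirma libraries and 0.473 and 0.500 in siNC libraries. Each had 7 other called sites within 100 nt, and each was read at least 123 times in every library.

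Among naive pluripotency genes, 5 of 21 held dense sites (Sall4, Sox2, Esrrb, Tet1 and Trim71), with 12 measured sites that all fell and a median of 44.9% remaining. The 4 dense sites of Sall4 had 0.237 and 0.213 in siVirma libraries and 0.709 and 0.619 in siNC libraries, or 33.9% remaining. The 4 dense sites of Sox2, a core pluripotency factor, had 0.247 and 0.244 in siVirma libraries and 0.513 and 0.456 in siNC libraries, or 50.8% remaining. Whether these genes differ was not tested. Sall4 was also the 1 of 12 primitive endoderm genes with a site in range that held dense sites. That share, 8.33%, was near the 7.91% of all genes with a site in range.

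Among Polycomb and other chromatin regulators, 8 of 32 held dense sites (among them Nsd1, Setdb1, Arid1a, Hcfc1, Setd2, Chd8 and Rnf2), and all 18 sites were kept and fell, with a median of 45.7% remaining. Setdb1, which methylates histone H3 to silence retroelements, had 3 dense sites between chr3:95245828 and 95245928. They had 0.431 and 0.425 in siVirma libraries and 0.800 and 0.827 in siNC libraries. Among Wnt signalling genes, 4 of 18 held dense sites (Axin2, Fzd5, Lrp5 and Sp5), with 6 measured sites that fell and 39.1% remaining. Axin2, a feedback inhibitor of the pathway, had 0.309 and 0.239 in siVirma libraries and 0.698 and 0.606 in siNC libraries over 2 measured sites. Fzd5, a Wnt receptor, had 0.323 and 0.330 in siVirma libraries and 0.579 and 0.607 in siNC libraries.

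Other groups had a share of genes with dense sites near the 7.91% of all genes with a site in range. It was 9.52% among splicing factors and 8.33% among genes of the 2-cell stage program. The splicing factors Son and Srrm2, core proteins of nuclear speckles, were 2 of 21 and had 1 dense site each. Son had 0.165 and 0.183 in siVirma libraries and 0.348 and 0.415 in siNC libraries. Srrm2 had 0.250 and 0.263 in siVirma libraries and 0.516 and 0.581 in siNC libraries. Of 12 genes of the 2-cell stage program, Eif1a, a translation initiation factor, held 2 dense sites. The measured one had 0.162 and 0.202 in siVirma libraries and 0.495 in both siNC libraries.

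The m6A machinery itself carried dense sites at 3 genes. Ythdf3, a reader of the YTH family, had 3 of them, all kept, with 0.222 and 0.195 in siVirma libraries and 0.507 and 0.474 in siNC libraries. Its relative Ythdf1 had 1, at chr2:180552698, which was in neither siVirma list and had 0.289 and 0.316 in siNC libraries. Readers and erasers with dense sites were these 2 of 8 genes. In the writer complex, Virma was 1 of 8, and 1 of its 29 called sites was dense. That site, at chr4:11526732, was listed at 0.238 from 21 reads in siVirma replicate 1 and not listed in siVirma replicate 2, with 0.425 and 0.441 in siNC libraries. Of 13 fibroblast genes with a site in range, 1 (7.69%) held a dense site, near the 7.91% of all genes with a site in range. The gene was Thbs1, a matrix glycoprotein. Its dense site was listed at 0.182 in siVirma replicate 1 only, with 0.516 and 0.531 in siNC libraries.

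In the pooled EPSC table, 556 of the 1219 dense positions (45.6%) were listed, against 31.2% of the rest and 46.8% of the rest once weighted to level and depth in TBLC. Of these, 262 had at least 20 reads for both guides. Their summed reads gave a level of 0.480 (95% Wilson interval 0.471 to 0.488) with sgGata6 and 0.506 (0.496 to 0.515) with sgCtrl. At 3293 sites of the rest, the summed level was 0.498 (0.496 to 0.500) with sgGata6 and 0.518 (0.516 to 0.521) with sgCtrl. The median over single sites was 0.442 with sgGata6 and 0.50 with sgCtrl at the 262 dense sites (median difference -0.0156). At the 3293 sites of the rest it was 0.450 with sgGata6 and 0.438 with sgCtrl (median difference 0.00557), the other direction to their summed level. The pooled values have no replicates and the intervals cover counting error only, so no test was made. In TBLC, the same 262 sites had a median siNC level of 0.569.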

How the data were processed

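GLORI libraries were made from mRNA, per the labels' protocols. The build is mm39 according to the submitters' processing notes, with aligner and caller not given in the sources used here. The authors deposited, per the file headers, counts of A+G and A reads for each called site, the level as a fraction, a conversion rate and a gene coverage signal, and a p-value of each site. The deposited EPSC counts and the A+G coverage there are pooled for each guide. The deposited level equals A over A+G reads within 5e-06.

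The members, gene lists and tests were chosen with earlier results of these data known. Comparison sites were weighted to the dense sites in siNC level bins of 0.1 and depth bins with edges of 30, 50, 100 and 200 reads. Measured sites have at least 20 reads in all 4 TBLC libraries. Sites and runs were tested with edgeR 4.0.16 (R 4.3.3), quasi-likelihood on A and G read counts with a term per library, at an adjusted p of 0.05 (Benjamini-Hochberg) over all sites or runs; limma 3.58.1 on logit levels with 0.5 added to A and G reads and DESeq2 1.42.0 were alternatives. Library medians were compared by exact permutation. The median deposited conversion rate of dense sites' genes was 0.985 in both siVirma libraries and 0.976 in both siNC libraries. Named genes were the 10 with the most clusters (ties by dense sites, then symbol), the 4 clusters with the most dense sites (ties by shorter span), the 4 largest falls and the 4 highest remaining shares at 50 or more reads in every library, up to 2 genes of each list, and Virma. Gene names were matched to RefSeq tables of another assembly for gene type only. Python 3.11.15, numpy 2.4.6, pandas 2.3.3, scipy 1.17.1 and matplotlib 3.10.9 were used. Scripts were tested on simulated data. Some genes are not reported here by name.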

Additional observations from a re-analysis of the deposited data

How the results depend on the processing

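No result changed its direction under the settings tried, and 7 of 285 values of the named sites and runs lost their call, as given beside them above. Counting neighbours within 50 nt left 59 dense sites, with 83.05% kept, 49 falls and 40 runs that fell. Within 200 nt, 77.85% of 5856 sites were kept, 4232 sites fell and 1830 runs fell. With at least 3 others it was 77.46%, 2627 and 1584, and with at least 6 others 91.67%, 65 and 43. With a mean of 50 siNC reads for sites and neighbours it was 90.93%, 391 and 227. With 50 reads in each library 564 of 564 sites fell. Without 1 replicate, retention was 79.16% to 86.96% (with 1 siVirma list, a site needs only that list), 883 to 958 sites fell and 595 to 608 runs fell. The retention difference ran between 2.13 points (without siVirma replicate 2) and 14.8 points (no weighting), and was 10.9 points with at least 6 others. The finest bins and the smooth model were chosen after seeing the data. Deviations of same-numbered libraries correlated at 0.00792 over 20414 sites. Counting error is part of such deviations, so the value cannot show whether replicate numbers pair the libraries. With a replicate block 920 sites and 600 runs fell and 0 sites rose. Depth limits the weak sites: 2 libraries in a group cannot give an exact p under 0.33, sites leave a list below 5 A reads or a level of 0.1, and neighbouring sites share reads.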
